A study of Mus musculus with 13 samples.

Results

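Endothelial cells that escaped the depletion step of a stromal sort were examined in single-cell RNA-seq libraries (10x Chromium, 3′ chemistry with unique molecular identifiers, UMIs) of mouse mammary glands. A barcode was taken as an endothelial cell when it had 500 to 7500 detected genes and at most 10% mitochondrial UMIs, UMIs of at least 2 of the 4 genes Pecam1, Cdh5, Emcn and Vwf, at most 20 UMIs of Dcn per 10000 UMIs, and no UMI of Pdgfra or Epcam. By this rule 600 barcodes were endothelial cells, 0.539% of the 111246 barcodes that met the limits on genes and mitochondrial UMIs in the 13 libraries. The cells were thus selected on measured values, and the levels of the 4 marker genes, Dcn, Pdgfra and Epcam are a description of that choice.

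Of the 13 libraries, 9 came from wild-type C57BL/6 females and were sorted as cells negative for CD31, CD45, TER-119 and CD24. CD31 is the protein made by Pecam1, so endothelium was removed before capture and every share given here describes what passed the sort, not the vessels of the gland. These libraries covered puberty (4 weeks in the labels, although the text of the study gives a slightly older age), the adult virgin gland (9 weeks), day 14.5 of pregnancy, day 10 of lactation and day 4 of involution, with 1 library each, and females of 9 weeks that carried pellets of medroxyprogesterone acetate and estradiol (MPA+E) or placebo pellets, with 2 libraries each. The other 4 libraries held GFP-positive cells, which the study describes as lineage-negative as well, of hyperplastic glands and tumors taken from the same raGFP-Wnt1 mice, which carry a Pdgfra-GFP knock-in allele (KI/+) and the MMTV-Wnt1 transgene (T/+) on a mixed C57BL/6 and FVB background, 1 mouse of 45 weeks and 1 of 17 weeks. In those mice the MMTV promoter drives Wnt1 in the mammary epithelium, and the gate for a Pdgfra reporter selects fibroblasts. Per the methods of the study, the stage and hormone libraries pooled females, so the variation between single animals was not measured.

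Blood vessel endothelium of the mammary gland lies within a fat pad and around the ducts and alveoli. Capillary endothelium of fat takes up fatty acids through the transporter Cd36, holds lipoprotein lipase at its surface through Gpihbp1 and carries fatty acids on Fabp4. During pregnancy and lactation a dense capillary bed forms around the milk-producing alveoli, and during involution after weaning this bed regresses while leukocytes enter the gland. Endothelial cells guide leukocytes out of the blood with selectins and chemokines, and they can present antigen on MHC class II when exposed to interferon gamma. Lymphatic endothelium is a separate lineage set by the transcription factor Prox1.

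Each library comprised between 5230 and 14424 barcodes, with 56551189 to 112550204 UMIs in total. Comparison fibroblasts, used throughout as the reference cell type of the same libraries, were 75002 barcodes with at least 1 Pdgfra UMI, over 20 Dcn UMIs per 10000, and no UMI of the 4 endothelial markers or Epcam. Endothelial cells of the wild-type libraries were shallow, with a median of 1229 (puberty) to 3949.5 (MPA+E replicate 1) UMIs, which was 0.194 to 0.640 of the median of all retained barcodes in the same library. No endothelial barcode sequence occurred among the endothelial cells of a second library, while 19 of the 600 matched a retained barcode of another library, and pairs of libraries shared 3 to 46 retained barcodes over 78 pairs. Levels are given as counts per 1000000 UMIs (CPM) of the summed endothelial UMIs of a library, and their intervals cover counting error only.

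The endothelial share of retained barcodes differed between libraries by more than the counting error allows. It was 0.690% at puberty (58 of 8410 barcodes, exact Clopper-Pearson 95% interval 0.524 to 0.891%), 0.288% in the adult virgin library (37 of 12832, 0.203 to 0.397%), 0.392% in pregnancy (52 of 13257, 0.293 to 0.514%), 0.715% in lactation (64 of 8947, 0.551 to 0.913%) and 2.03% in involution (220 of 10847, 1.77 to 2.31%). The involution library thus stood above every other stage library, and the adult and pregnancy intervals overlapped. Among the hormone libraries the 2 replicates of a group lay far apart. Placebo replicate 1 held 33 of 5332 barcodes (0.619%, 0.426 to 0.868%) and placebo replicate 2 held 9 of 6493 (0.139%, 0.0634 to 0.263%). MPA+E replicate 1 held 100 of 5828 (1.72%, 1.40 to 2.08%) and MPA+E replicate 2 held 24 of 9848 (0.244%, 0.156 to 0.362%). The groups overlapped, with mean shares of 0.980% under MPA+E and 0.379% under placebo (exact two-sided permutation test over libraries, p = 0.667, n = 2 per group, where 0.333 is the smallest p this design allows). Without MPA+E replicate 1 the difference of 0.601 percentage points became -0.135.

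**Figure D1:**
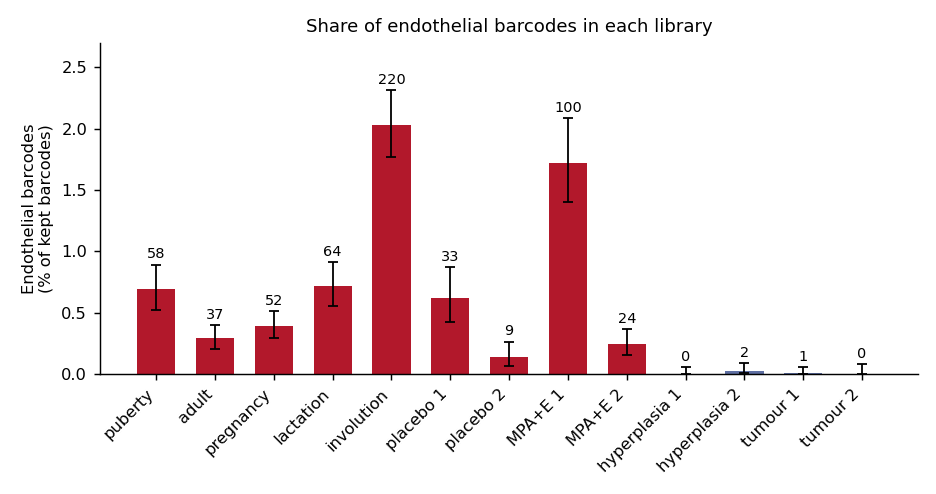
Share of retained barcodes that met the endothelial rule, in percent on the vertical axis, for each library on the horizontal axis, with bars for the exact Clopper-Pearson 95% interval. The involution library (2.03%) and MPA+E replicate 1 (1.72%) lie above all others, and the 4 reporter libraries lie near 0.

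Because the rule asks for detected genes, depth bears on these shares. After every barcode was thinned to 2000 UMIs, with shallower barcodes left out, the share was 0.141% at puberty and 0.0581% in the adult gland, and pregnancy, lactation and involution had 0.264%, 0.355% and 0.701%, the last with 72 endothelial cells of 10270 barcodes. Involution remained the highest of the stage libraries, and puberty moved from above pregnancy to below it. At puberty 47 of the 58 endothelial cells were left out as shallower, against 16 of 52 in pregnancy. All retained barcodes at puberty fell only from 8410 to 7787, so this move reflects in part the loss of shallow cells. In thinned barcodes the share was 0.581% and 0.0963% in the placebo replicates and 1.46% and 0.147% in those of MPA+E. The share also moved with other limits, to 1.07% in involution, 0.324% in lactation and 0.464% at puberty with at least 3 of the 4 markers, and to 0.231% in pregnancy (25 cells) with at most 5% mitochondrial UMIs. The order of lactation and puberty thus depended on the rule. More endothelial cells in the gland and less complete depletion in the sort cannot be told apart here.

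The label was checked against 20 pan-endothelial genes that the rule did not use, and the cells carried them. Of the 600 cells 582 had UMIs of at least 5 of the 20 genes, and the median per wild-type library was 8 to 14 genes against 2 to 3 in the fibroblasts, which were deeper. Apart from the markers, the genes highest in the endothelial cells relative to the fibroblasts included Robo4, Selp, Tal1, Cyyr1, Myct1, Gpihbp1, Cldn5, Sox17 and Tie1. Cldn5, the claudin of endothelial tight junctions, had UMIs in 76.5% of the cells and a level of 1385 CPM over the wild-type libraries against 0.134 CPM in fibroblasts, ranging from 915 to 3307 CPM between libraries. The VEGF receptors Flt1 and Kdr stood at 1229 and 944 CPM against 1.07 and 24.9 CPM in the fibroblasts. Receptor-type phosphatase Ptprb stood at 1039 against 0.462 CPM, the secreted factor Egfl7 at 905 against 0.701 CPM, and the angiopoietin receptors Tie1 and Tek at 236 against 0.0257 CPM and at 214 against 65.7 CPM. The exception was Cd34, which mammary fibroblasts also make, with 432 CPM against 841 CPM in the fibroblasts. Of the 20 genes, 19 stood above the fibroblasts in all 9 wild-type libraries and Cd34 in 1.

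Among the markers of the rule, Cdh5 (VE-cadherin, chromosome 8, 104101625 to 104144511 on GRCm38) was detected in 568 cells (94.7%), Pecam1 (chromosome 11, 106654217 to 106750628) in 541 (90.2%), Emcn (endomucin, chromosome 3, 137341067 to 137432185) in 420 (70.0%) and Vwf (von Willebrand factor, chromosome 6, 125546774 to 125686679) in 96 (16%). Exactly 2 markers were seen in 241 cells, 3 in 293 and 4 in 66. Just inside the rule, the 241 cells with exactly 2 markers had a median of 9 of the 20 pan-endothelial genes, while the 265 barcodes with exactly 1 marker that met the other limits had a median of 1. At least 5 of the 20 genes were seen in 93.4% of the former and in 32.1% of the latter. The rule thus left out some barcodes that carried endothelial genes, and the shares given above do not count them. Just inside the Dcn limit, 35 cells with 10 to 20 Dcn UMIs per 10000 had a median of 8 genes, as did the 8 barcodes with 20 to 30.

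Genes of other cell types were present to differing degrees. No endothelial cell had a UMI of the leukocyte gene Ptprc, the summed leukocyte list lay between 0 and 5 CPM, and the epithelial list between 0 and 172 CPM. The fibroblast list lay between 321 (placebo replicate 1) and 2006 CPM (lactation), against 34372 to 68005 CPM in the fibroblasts. That list holds Dcn and Pdgfra, and the epithelial list holds Epcam, which the rule limited in the endothelial cells. Dcn and Pdgfra were also required in the fibroblasts, so these sums partly describe the choice. Col3a1, which the rule did not use, had UMIs in 54 of 64 cells in lactation and 126 of 220 in involution. UMIs of at least 2 pericyte genes occurred in 7 cells, UMIs of at least 2 smooth muscle genes in 8, and 9 cells were among the highest doublet scores of their libraries. Summed milk protein transcripts stood at 0 CPM at puberty and in the adult, 66 CPM in pregnancy, 1084 CPM in lactation and 1597 CPM in involution, where 99.6% of the 238 Wap UMIs and 96.7% of the Csn2 UMIs came from 1 cell. In the puberty library all of the 663 Hbb-bs UMIs came from 1 cell.

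Genes of capillary endothelium and lipid uptake dominated the vascular program. Fabp4, the fatty acid binding protein of fat endothelium and adipocytes, had UMIs in 592 of the 600 cells (98.7%). Its level was 35896 CPM at puberty and 50029 in the adult gland, and the pregnant, lactating and involuting glands had 25832, 31687 and 27529 CPM. The placebo replicates had 30084 and 36442 CPM and the MPA+E replicates 21041 and 17566 CPM. The fibroblasts of the same libraries had 83 to 293 CPM, and 16 to 29.9% of them had a Fabp4 UMI. Cd36 had UMIs in 567 cells (94.5%) and Gpihbp1 in 516 (86.0%), with Gpihbp1 between 1121 (MPA+E replicate 2) and 3864 CPM (lactation) against at most 0.435 CPM in fibroblasts. The summed capillary list ranged from 24972 CPM (MPA+E replicate 2) to 66459 CPM (adult). In each library Fabp4 made up most of this sum, so the list follows Fabp4 closely.

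Arterial genes were carried by a minority of the cells. UMIs of at least 2 of Gja5, Gja4, Hey1, Sox17, Dll4, Bmx and Sema3g occurred in 118 of 600 cells (19.7%), and in 52 of 312 cells (16.7%) after thinning to 2000 UMIs, against 0.0627% of the fibroblasts. Among the wild-type libraries the share ran from 24 of 220 cells in involution (10.9%) to 11 of 33 in placebo replicate 1 (33.3%). In the reporter libraries 2 of 2 cells of hyperplasia replicate 2 and 1 of 1 of tumor replicate 1 carried the set. Depth bears on these shares. After thinning they were 10.7% in involution and 25.8% in placebo replicate 1, and MPA+E replicate 1 went from 29% to 11.2%. Sox17, an arterial transcription factor, was detected in 213 cells (35.5%) and the Notch ligand Dll4 in 127, while the arterial connexin genes Gja4 and Gja5 were detected in 29 and 11. Gja5, which encodes connexin 40, stood at 127 CPM in lactation and at 0 to 20.9 CPM in the other 8 wild-type libraries.

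The venous genes Ackr1, Selp, Sele, Lrg1 and Vcam1 were seen at least 2 together in 51 cells (8.50%), and in 30 of 312 thinned cells (9.62%), against 3.68% of the deeper fibroblasts, which also express Vcam1. P-selectin (Selp) was detected in 46 cells (7.67%), E-selectin (Sele) in 25 and the atypical chemokine receptor Ackr1, a marker of postcapillary venules, in 18. Involution held 17 of the 51 cells with the venous set, 7.73% of its 220 cells. MPA+E replicate 1 held 16, which was 16% of its 100 cells, and MPA+E replicate 2 held 4 of 24 (16.7%). After thinning to 2000 UMIs these 3 shares were 10.7% (8 of 75 cells), 12.4% (11 of 89) and 11.1% (2 of 18), so they lay close together. The apelin receptor Aplnr, which venous and some capillary cells express, was the most widespread of the venous list, with UMIs in 250 cells (41.7%).

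Lymphatic endothelium was close to undetectable. The cells held no UMI of Lyve1 (hyaluronan receptor), Mmrn1 or the chemokine Ccl21a, 10 UMIs of Prox1 in 8 cells and 1 UMI of Reln. Flt4, the receptor for VEGF-C, had 69 UMIs in 63 cells and a level of 13.7 to 77.4 CPM in the wild-type libraries, and blood capillaries can make it as well. UMIs of at least 2 of the 6 lymphatic genes occurred in 3 of 600 cells (0.500%), 1 each in involution, placebo replicate 1 and MPA+E replicate 1, and in 1 of 312 thinned cells. Among all 111246 retained barcodes 1, from involution and outside the 600, had UMIs of at least 3 of Prox1, Lyve1, Mmrn1, Ccl21a and Flt4. Prox1, Lyve1, Reln and Ccl21a had 1798, 585, 1590 and 1344 UMIs over all retained barcodes, nearly all outside the endothelial cells. A rare lymphatic population was not detectable in 37 to 220 cells per stage.

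**Figure D2:**
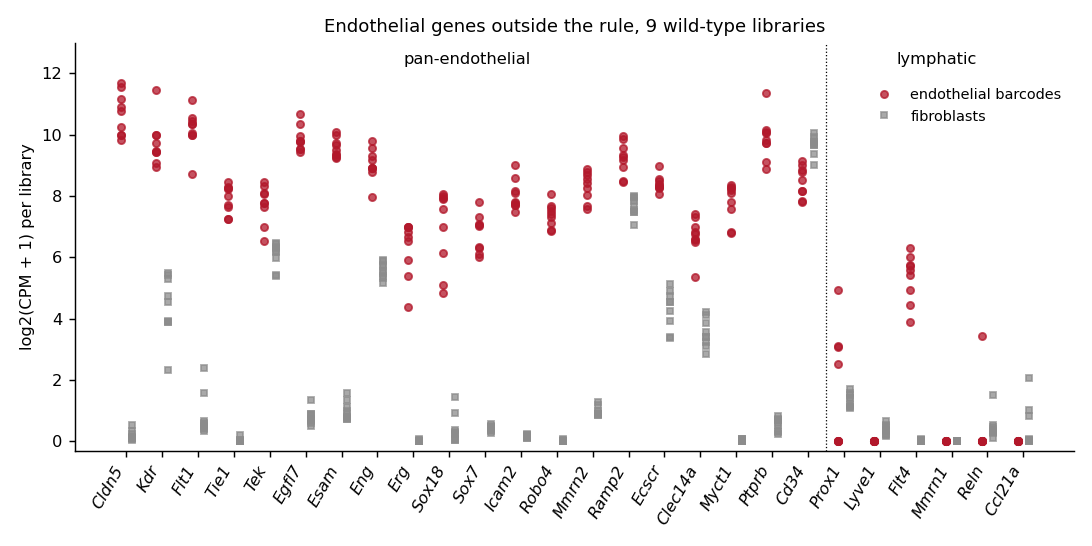
Levels of the 20 pan-endothelial genes and 6 lymphatic genes on the vertical axis, as log2(CPM + 1), with 1 point per wild-type library for the endothelial cells (circles) and 1 for the fibroblasts (squares) at each gene on the horizontal axis. The pan-endothelial genes other than Cd34 lie above the fibroblasts of the same libraries, and Lyve1, Mmrn1 and Ccl21a lie at 0 in the endothelial cells.

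At least 50 endothelial cells were found at puberty, pregnancy, lactation and involution, and the adult library with 37 fell below this number. Each stage was therefore set against the one before it among these 4. With 1 library per stage there is no test, and a gene counts as different when the levels were 4-fold or more apart among genes with at least 50 UMIs in both libraries together. A gene can pass this limit only through the library where it is high. Ratios carry exact 95% intervals for counting error only.

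Between puberty and pregnancy 8 of 751 genes (1.07%) were 4-fold higher in pregnancy and 11 (1.46%) were 4-fold lower, 2.53% in either direction. The transcription factor Tcf15, which with Meox2 controls fatty acid transport genes in endothelium, had 58 UMIs in 32 of 58 puberty cells and 3 UMIs in 3 of 52 pregnancy cells, 28.9-fold lower (9.42 to 144). The level of Tcf15 was 573 CPM at puberty and 411 in the adult gland, against 19.8 CPM at pregnancy, 317 during lactation and 186 during involution. Placebo replicates stood at 283 and 567 CPM, MPA+E replicates at 269 and 147 CPM. Pregnancy was the lowest library for Tcf15, and the fibroblasts stayed at 0.750 to 3.12 CPM. Cdkn1c, a cyclin-dependent kinase inhibitor that restrains the cell cycle, was 15.7-fold lower in pregnancy (6.83 to 44.4), with 622 CPM at puberty and 39.6 in pregnancy. The chemokine Cxcl12 was 5.20-fold lower (3.67 to 7.52), from 1441 to 277 CPM, while its level in fibroblasts was 239 and 279 CPM. The junction gene Jam2 was 4.86-fold lower (2.49 to 10.2) and the heat shock gene Hspa1a 5.37-fold lower (3.31 to 9.05). Of the 11 lower genes 4 were globin genes (Hbb-bs, Hbb-bt, Hba-a1 and Hba-a2) with all puberty UMIs from 1 cell.

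The higher genes of pregnancy included Tagln (22.4-fold, 5.96 to 189), Tpm2 (18.4-fold, 4.85 to 156) and Acta2 (9.90-fold, 5.39 to 20.2), which are genes of smooth muscle and pericytes. The study also lists Acta2, with Krt14, among its epithelial markers, and the pregnancy cells held 19 Krt14 UMIs in 2 cells and 5 Krt5 UMIs in 1. Which cell type gave these UMIs was not tested. In pregnancy 1 cell gave 70.6% of the 163 Acta2 UMIs, and 1 cell gave 61.8% of the Tpm2 UMIs. The summed smooth muscle list, 247 CPM at puberty and 1966 CPM in pregnancy, moved with this comparison. Without cells that had a smooth muscle or pericyte set, an alternative added after seeing the data, 10 of 646 genes were 4-fold higher in pregnancy and 11 were 4-fold lower. Cxcl10, an interferon-induced chemokine, was 5.57-fold higher (2.78 to 12.6) and the MHC class I gene H2-Q7 4.11-fold higher. Ctla2a, a cysteine protease inhibitor, was 3.102-fold higher (2.47 to 3.93).

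The summed proliferation list was highest in pregnancy among the stages, at 1729 CPM, and at 770 CPM at puberty, 233 in the adult gland, 218 during lactation and 201 during involution. At puberty 1 cell gave all of the Mki67, 90.9% of the Top2a and 81.8% of the Stmn1 UMIs. In pregnancy Stmn1, a tubulin-binding protein of dividing cells, had 85 UMIs in 21 of 52 pregnancy cells, and Mki67 had 30 UMIs in 5. In the placebo replicates the list had 231 and 346 CPM, and in the MPA+E replicates it had 524 and 1791 CPM, where 1 cell gave 88.5% of the Stmn1 and 95.2% of the Top2a UMIs in MPA+E replicate 2. The pan-endothelial list held no gene past 4-fold between puberty and pregnancy in 13 measured, with a median log2 ratio of -0.61 beside 0.09 over all genes measured. The VEGF receptors Flt1 and Kdr were 3.11-fold (2.29 to 4.27) and 1.42-fold (1.01 to 1.99) lower.

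Between pregnancy and lactation 36 of 926 genes (3.89%) were 4-fold higher in lactation and 31 (3.35%) were 4-fold lower, 7.24% in either direction, and the higher genes included receptors and transporters of capillary endothelium. Cd36 (chromosome 5, 17781690 to 17888801) was 6.50-fold higher in lactation (5.62 to 7.56). Endothelial cells had 9051 CPM of Cd36 during lactation, 2715 at puberty, 2738 in the adult gland, 1392 during pregnancy and 4649 during involution. The placebo replicates had 4668 and 4819 CPM, those with MPA+E 2723 and 2137 CPM. The lactation interval of 8563 to 9560 CPM lay above those of every other library. Several other genes of the capillary list were higher as well, with the water channel Aqp1 at 7.10-fold (5.66 to 9.00), Timp4 at 6.35-fold (3.98 to 10.6), Fabp5 at 3.44-fold (3.01 to 3.95) and Gpihbp1 at 1.80-fold (1.56 to 2.07), while Fabp4 was 1.23-fold higher (1.17 to 1.28) and Rbp7 1.496-fold lower (1.25 to 1.79). Of the 10 measured genes of this list 3 were past 4-fold and none was lower by as much, with a median log2 ratio of 1.24 beside -0.04 over all genes. The pan-endothelial list was higher too, with 3 of 15 measured genes past 4-fold and a median of 0.96. Its sum stood at 7238 CPM in pregnancy, the lowest of the wild-type libraries, and at 14689 CPM in lactation. Higher levels in lactation were thus not particular to the capillary list.

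Kdr (VEGFR2, chromosome 5, 75932827 to 75978458), the main signaling receptor for VEGF-A, was 5.79-fold higher in lactation (4.51 to 7.53). The lactating gland had 2829 CPM, while puberty had 691, the adult gland 712, pregnancy 488 and involution 1012 CPM, and the 4 hormone libraries had 545 to 1008 CPM. In the fibroblasts of the same stages Kdr ran the other way, with 37.9 CPM in pregnancy and 4.07 in lactation. The decoy receptor Flt1 was 5.40-fold higher (4.11 to 7.19), with 416 CPM in pregnancy and 2245 in lactation. Coreceptor Nrp1 was 2.94-fold and the angiopoietin receptor Tek 2.97-fold higher. Of 7 VEGF and angiopoietin genes measured, 2 were past 4-fold, with a median log2 ratio of 1.56. Ptprb was 5.56-fold (4.31 to 7.25) and the butyrophilin-like gene Btnl9 7.52-fold higher (5.43 to 10.6), and the BMP receptor Bmpr2 was 7.04-fold higher (3.60 to 15.4). Of 9 junction genes 2 were past 4-fold, F11r (4.80-fold) and Jam2 (5.78-fold). The 9 include Cdh5 and Pecam1, which the rule used, so the median log2 ratio of that list, 1.20, partly describes the choice of cells. Of 9 basement membrane genes none was past 4-fold, with a median of 0.72.

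Slc39a8, which encodes the zinc and manganese transporter ZIP8 (chromosome 3, 135825279 to 135888572), differed in the number of cells as well as in level, with UMIs in 50 of 64 lactation cells and in 8 of 52 pregnancy cells. Its level was 19.7 CPM at puberty, 54.8 in the adult gland, 106 during pregnancy, 1830 during lactation and 406 during involution. The hormone libraries lay between 20.9 (MPA+E replicate 2) and 112 CPM (placebo replicate 1). Lactation was 17.3-fold above pregnancy (10.5 to 30.8), involution was 4.51-fold below lactation (3.71 to 5.50), and the fibroblasts had 3.62 to 7.86 CPM in all 9 libraries. Igfbp3, a secreted binder of insulin-like growth factors, was 20.3-fold higher in lactation (7.60 to 76.3), with 76 UMIs from 13 cells. Tmem182, another gene of the largest ratios, was 15.2-fold higher (5.62 to 57.7).

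Among the genes lower in lactation, the smooth muscle genes Acta2 (153-fold, 27.0 to 6072) and Tagln (15.7-fold) had their pregnancy UMIs in 4 and 8 cells, Cxcl10 was 35.2-fold lower (9.40 to 296), Stmn1 was 15.9-fold lower (6.57 to 50.3) and 13 of the 31 were ribosomal protein genes, such as Rplp0 (5.32-fold, 4.25 to 6.74). Transcripts of a locus that overlaps ribosomal RNA moved with this comparison. This locus, Gm42418, stood at 6210 to 9023 CPM in the endothelial cells of puberty, adult and pregnancy and at 18289 to 44222 CPM in the other 6 wild-type libraries, and in fibroblasts at 2539 to 3210 and 7612 to 17830 CPM. The median mitochondrial share of the endothelial cells moved as well, with 4.22% at puberty, 5.04% in pregnancy and 3.01% in lactation. The part of either in the differences between these stages was not tested.

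**Figure D3:**
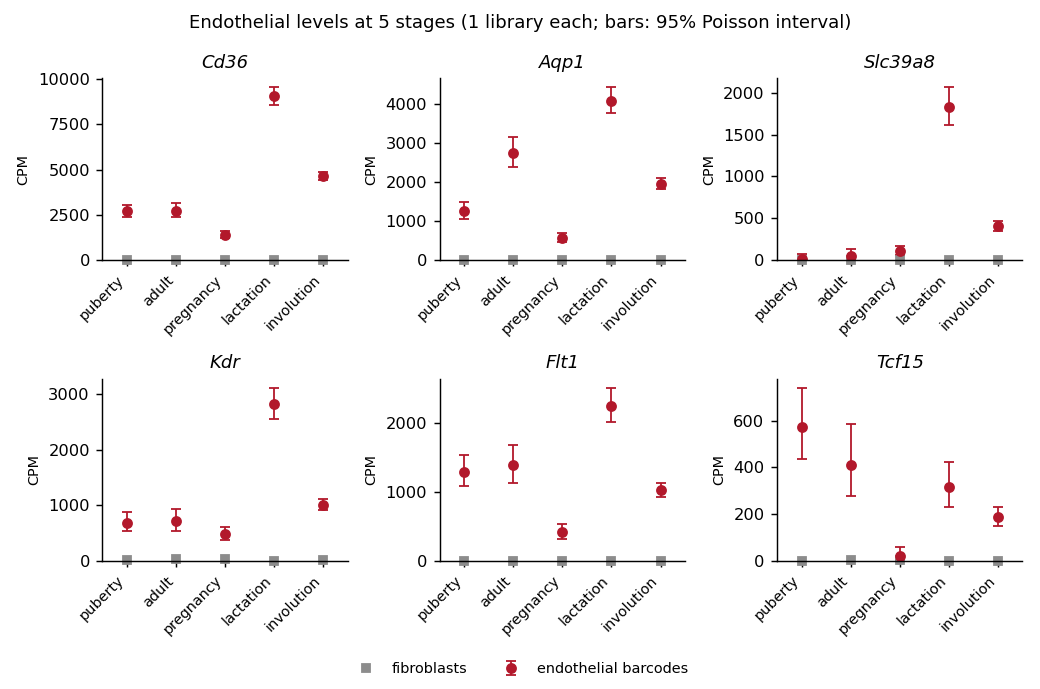
Levels in CPM on the vertical axes of 6 genes in the endothelial cells (circles, with bars for exact Poisson 95% intervals) and fibroblasts (squares) of the 5 stage libraries on the horizontal axes. Cd36, Kdr and Slc39a8 stand highest in lactation (9051, 2829 and 1830 CPM), as do Aqp1 and Flt1, and Tcf15 stands lowest in pregnancy (19.8 CPM).

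Between lactation and involution 37 of 2035 genes (1.82%) were 4-fold higher in involution and 7 (0.344%) were 4-fold lower, 2.16% in either direction. Involution gave 423923 endothelial UMIs and lactation 142078, so a gene high in involution reaches 50 UMIs at a lower level. The unequal counts of higher and lower genes rest in part on this filter. Cd74, the invariant chain that escorts MHC class II molecules, had 481 UMIs in involution and none in lactation, which makes it at least 53.7-fold higher against the 3 counts that a count of 0 allows in the lactation library. Its level was 1135 CPM in involution (1035 to 1241), 7.64 CPM in MPA+E replicate 1 and 0 in the other 7 wild-type libraries. H2-Ab1, H2-Aa and H2-Eb1, which encode chains of the class II molecule itself and were added after their values were seen, had 107, 96 and 75 UMIs in involution and none in lactation, so they were at least 11.9-fold, 10.7-fold and 8.38-fold higher.

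MHC class II transcripts were spread over many cells of the involuting gland. Of its 220 endothelial cells 90 (40.9%, exact Clopper-Pearson 95% interval 34.3 to 47.7%) had a UMI of at least 1 of the 4 genes and 60 had UMIs of at least 2 of them. In the other wild-type libraries 0 to 2 cells had one, and a count of 0 of 64 in lactation allows a share of up to 4.69%. The cell with the most Cd74 gave 6.86% of its UMIs. Ciita, the transactivator of class II genes, had 12 UMIs in 9 endothelial cells of involution and none in the other libraries. No class II positive cell had a Ptprc UMI, and cells with a class II UMI had a median of 10 pan-endothelial genes and 1883.5 UMIs against 9 genes and 1507.5 UMIs without. In the fibroblasts 7.46% had a class II UMI in involution and 1.90 to 5.21% in the other libraries, at higher depth. After thinning to 2000 UMIs the share was 53.3% of endothelial cells in involution (40 of 75, with 145 shallower cells left out) and 2.55% of fibroblasts, and it was 0 of 34 endothelial cells in lactation, 0 of 36 in pregnancy and 0 of 11 at puberty.

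Of the 10 measured genes of the interferon-induced list 1, Ifit1, was past 4-fold in the same comparison, with a median log2 ratio of 1.04, and Rsad2 was 1.66-fold higher. Other genes that interferon can induce, named after their values were seen, are given with it. Cxcl10 (chromosome 5, 92346638 to 92348889) was 45.3-fold higher (12.4 to 376), and its level was 88.9 CPM at puberty, 68.5 in the adult gland, 495 during pregnancy, 14.1 during lactation and 637 during involution. The placebo replicates had 96.9 and 157 CPM and the MPA+E replicates 761 and 492 CPM. Lactation was thus the low point, and the fibroblasts also had their lowest level there, 44.9 CPM against 471 in involution. Cxcl9, the other ligand of the receptor Cxcr3, was 4.50-fold higher (3.39 to 6.08), at 1647 CPM in involution and 276 to 1134 CPM in the other libraries, and in fibroblasts it was 35.6 CPM in lactation and 451 in involution. The guanylate-binding protein gene Gbp3 was 14.9-fold higher (4.01 to 125), Ifit1 11.2-fold (3.71 to 55.1) and the GTPase gene Igtp 9.38-fold (3.56 to 35.0). Ubd, a ubiquitin-like modifier induced by interferon gamma, was also 9.38-fold higher (3.93 to 29.3).

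**Figure D4:**
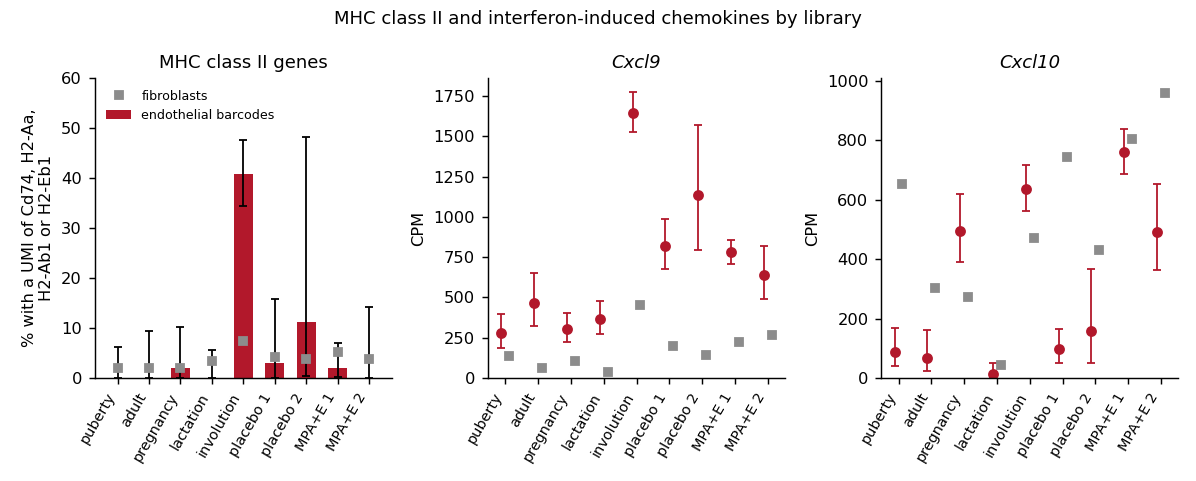
The first panel gives the percent of cells with at least 1 UMI of Cd74, H2-Aa, H2-Ab1 or H2-Eb1 in each wild-type library, as bars with exact Clopper-Pearson 95% intervals for endothelial cells and squares for fibroblasts, and the other panels give Cxcl9 and Cxcl10 in CPM with Poisson 95% intervals for the endothelial cells (circles). Endothelial cells with a class II UMI reach 40.9% in involution and number 0 to 2 in each other library, where the 1 of 9 cells in placebo replicate 2 stands at 11.1% with an interval of 0.281 to 48.2%.

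MHC class I genes were higher by smaller factors. H2-K1 was 1.73-fold, H2-D1 1.49-fold and B2m 1.52-fold higher in involution than in lactation, none of the 11 measured genes of the list was past 4-fold, and the median log2 ratio was 1.17 beside 0.02 over all genes. The summed class I list stood at 13078 CPM in involution and at 4408 to 8589 CPM in the other 8 libraries, and in fibroblasts at 5913 CPM in involution and 3543 in lactation. Of the 8 activation and adhesion genes 1 (Cd74) was past 4-fold, with a median of 1.23, where Il6 was 2.74-fold and Selp 2.01-fold higher. In lactation these were 11 Il6 UMIs in 2 cells and 18 Selp UMIs in 3 cells, with 88.9% of the Selp UMIs from 1 cell. The receptor tyrosine kinase gene Kit (16.8-fold, 2.87 to 675) and the cytokine receptor gene Csf2rb2 (17.1-fold, 2.93 to 688) were among the largest ratios with 50 and 51 UMIs in involution and 1 in lactation. Both passed the limit of 50 UMIs through involution alone. The same holds for Cd74, H2-Ab1, H2-Aa, H2-Eb1, Cxcl10, Gbp3, Ifit1, Igtp and Ubd. The cholesterol exporter Abca1 was 7.98-fold higher (4.26 to 16.8). In 2 of the 37 genes most UMIs came from 1 cell, 85.7% of those of the chemokine Ccl5 and 96.4% of those of the pericyte gene Rgs5.

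On the lower side, Igfbp3 was 16.2-fold lower in involution (9.09 to 31.0), the protease gene Adamts5 9.38-fold (5.04 to 18.5), Timp4 6.22-fold (4.53 to 8.60), Tmem182 5.86-fold (3.69 to 9.51), the retinol-binding protein gene Rbp7 5.49-fold (4.35 to 6.97) and Slc39a8 as given above. Kdr was 2.80-fold (2.43 to 3.21), Flt1 2.19-fold, Gpihbp1 2.04-fold and Cd36 1.95-fold lower. Both genes of the capillary list past 4-fold, of 11 measured, were Timp4 and Rbp7, and the list had a median log2 ratio of -0.96, while the pan-endothelial list had no gene past 4-fold in 20 and a median of -0.21.

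The receptors for estrogen and progesterone were nearly silent in these cells. Over all 600 cells Pgr, the progesterone receptor, had 1 UMI, Esr1 5 and Esr2 0. The glucocorticoid receptor gene Nr3c1 was present at 275 CPM, against 166 CPM in fibroblasts.

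The hormone libraries asked what progestin and estrogen change in the stroma, and the endothelial cells of MPA+E (124 cells) could be set beside those of placebo (42 cells) only as values, since placebo held under 50 cells and its replicate 2 held 9. Among 2525 genes with at least 50 UMIs, both MPA+E libraries lay above both placebo libraries for 603 genes (23.9%) and below for 489 (19.4%), so non-overlap alone says little about a gene. Immediate early and heat shock genes lay lower for 10 of 13 measured, junction genes for 7 of 9, capillary genes for 7 of 12 and pan-endothelial genes for 9 of 20, the last with 2 higher. The 9 junction genes include Pecam1 and Cdh5, which the rule used, and Cdh5 is among the 7. Cldn5 and Esam, both lower, are in the junction and the pan-endothelial list. Fos, the immediate early transcription factor, had 4959 and 7024 CPM with placebo, against 3424 and 2912 CPM with MPA+E, but 1 of the 9 cells of placebo replicate 2 gave 74.4% of its 223 Fos UMIs, 57.1% of the Jun UMIs and 48.4% of the Junb UMIs. Fabp4, Cd36 and Kdr, with the values given above, were among the lower genes.

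Genes of the venous list lay higher under MPA+E for 4 of 7 genes measured and those of the activation and adhesion list for 6 of 9, with 1 lower (Ly6c1). Interferon-induced genes lay higher for 5 of 10. Sele and Selp are in both the venous and the activation list, and Bst2 is in both the activation and the interferon list. Genes were measured with 50 UMIs summed over these libraries, where MPA+E gave 618781 UMIs and placebo 165840. Sele, Selp, Lrg1 and Il6 reached 50 UMIs only through MPA+E, so these counts rest in part on the filter. Sele had no UMI in either placebo library and stood at 145 and 52.4 CPM under MPA+E, and Selp went from 29.8 and 0 CPM to 195 and 94.3 CPM. In MPA+E replicate 2 these were 5 Sele and 9 Selp UMIs in 2 cells each, with 60% and 77.8% from 1 cell. Irf7, a regulator of the interferon response, stood at 127 and 94.5 CPM against 283 and 356 CPM. Of 11 MHC class I genes measured 5 lay higher and 2, Tapbp and H2-Q4, lower. H2-K1 and B2m were among the higher ones, with H2-K1 at 1409 and 1228 CPM against 1920 and 2158 CPM.

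Whether MPA+E acted differently on endothelial cells and fibroblasts was tested with the cell type by treatment term of a quasi-likelihood fit in edgeR, with the library as a block, on the summed UMIs of both cell types in the 4 libraries. The fit called 19 of 14586 genes at a Benjamini-Hochberg adjusted p under 0.05, with 10 genes (0.0686%) more positive in endothelial cells and 9 (0.0617%) more negative, and 454 genes at an unadjusted p under 0.05. The median log2 difference over all genes was 0.24. The p-values rest on 2 libraries per group and on few cells in placebo replicate 2. The endothelial side of this term is the comparison given above only as values, so the same want of placebo cells limits it. The calls are read as candidates.

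Ctla2a (chromosome 13, 60934155 to 60936625) had the smallest p-value. In the fibroblasts it went from 7.10 and 10.97 CPM with placebo to 1617 and 1301 CPM with MPA+E, while the endothelial cells had 1574 and 693 CPM, then 1649 and 1561 CPM (log2 difference -6.69 ± 0.56 SE, edgeR adjusted p = 5.70e-29). The fibroblasts of both MPA+E libraries lay within the range of the endothelial cells. Ctla2b, on the same chromosome (60895350 to 60897447), was at 0 and 0.0441 CPM in placebo and 5.35 and 6.00 CPM in MPA+E fibroblasts, below the endothelial cells with 194 and 63.0 CPM against 134 and 83.8 CPM (-7.90 ± 0.91 SE, edgeR adjusted p = 2.49e-14). The paralogs are nearly identical in sequence, so reads may be split between them and the Ctla2b value is uncertain.

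In the other direction, 10 genes had a more positive difference in endothelial cells. The neutrophil chemokine Cxcl2 stood at 7.46 and 0 CPM in placebo and 136 and 10.5 CPM in MPA+E endothelial cells, against 76.4 and 308 CPM and 24.3 and 103 CPM in fibroblasts (log2 difference 5.84 ± 0.96 SE, edgeR adjusted p = 5.88e-06). MPA+E replicate 2 held 1 Cxcl2 UMI, 1 cell gave 43.7% of the 71 UMIs of replicate 1, and the call was lost with limma-voom and without replicate 1. Il6 had no UMI in the placebo endothelial cells and 145 and 31.4 CPM with MPA+E, against 229 and 263 CPM and 93.8 and 161 CPM in fibroblasts (edgeR adjusted p = 1.94e-05), with the UMIs of MPA+E replicate 2 from 1 cell. The scaffold protein gene Akap12 went from 216 and 252 CPM to 482 and 890 CPM in endothelial cells, and from 323 and 301 CPM to 144 and 124 CPM in fibroblasts (2.88 ± 0.50 SE, edgeR adjusted p = 2.62e-05). Plvap, which forms the diaphragms of fenestrated capillaries, stood at 358 and 0 CPM against 600 and 388 CPM in endothelial cells (2.50 ± 0.48 SE, edgeR adjusted p = 0.000365). Igfbp5 differed through the fibroblasts, which went from 2380 and 2140 CPM to 300 and 538 CPM, while the endothelial cells had 37.3 and 63.0 CPM against 51.6 and 136 CPM (3.55 ± 0.76 SE, edgeR adjusted p = 0.00349). All 27 and 13 Igfbp5 UMIs of the MPA+E endothelial cells came from 1 cell in each replicate.

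Interferon-induced genes were among those more positive in fibroblasts. Isg15 had 589 and 1165 CPM with placebo against 890 and 712 CPM with MPA+E in endothelial cells, and 198 and 164 CPM against 965 and 954 CPM in fibroblasts (log2 difference -2.19 ± 0.49 SE, edgeR adjusted p = 0.00768). Rsad2 had 209 and 441 CPM with placebo against 365 and 587 CPM with MPA+E in endothelial cells, where the libraries overlapped. In fibroblasts Rsad2 had 43.5 and 41.2 CPM against 350 and 461 CPM (-2.36 ± 0.51 SE, edgeR adjusted p = 0.00354). Of the 12 interferon-induced genes tested these 2 were called, with a list median of -0.98 beside 0.24 over all genes. Kdr went from 843 and 1008 CPM to 686 and 545 CPM in endothelial cells and from 14.2 and 13.9 CPM to 42.4 and 43.9 CPM in fibroblasts (-1.97 ± 0.45 SE, edgeR adjusted p = 0.00925). Kdr and Sox18, an endothelial transcription factor (-2.51 ± 0.61 SE, edgeR adjusted p = 0.0334), were the 2 called of the 20 pan-endothelial genes. The endothelial levels of Sox18 overlapped, with 268 and 126 CPM under placebo and 243 and 189 CPM under MPA+E. In fibroblasts Sox18 was near 0, with 0.211 and 0.191 CPM against 1.70 and 0.908 CPM. The heat shock gene Hspb1 stood at 1909 and 3906 CPM against 1206 and 1058 CPM in endothelial cells and 101.3 and 205 CPM against 299 and 543 CPM in fibroblasts (-2.50 ± 0.48 SE, edgeR adjusted p = 0.000365). For the smooth muscle gene Tagln, which was called with 4.02, 1 cell gave 50.9% of the UMIs in MPA+E replicate 1 and 1 cell 95.9% in replicate 2. Without cells of smooth muscle, pericyte or Ptprc identity 10 genes were called in place of 19 and Tagln was not among them, nor was it called without MPA+E replicate 1. Isg15, Rsad2, Kdr, Sox18 and Igfbp5 were not called without those cells, without either MPA+E replicate, or with at least 3 of the 4 markers. Akap12, Hspb1, Plvap and Prcp were not called without either MPA+E replicate, and Plvap and Prcp not with limma-voom. Ctla2a was called under all 9 alternative settings, Ctla2b under all except without placebo replicate 1 and Il6 under all except without MPA+E replicate 1, and the count was 5 and 6 without MPA+E replicates 1 and 2 and 75 and 44 without placebo replicates 1 and 2.

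**Figure D5:**
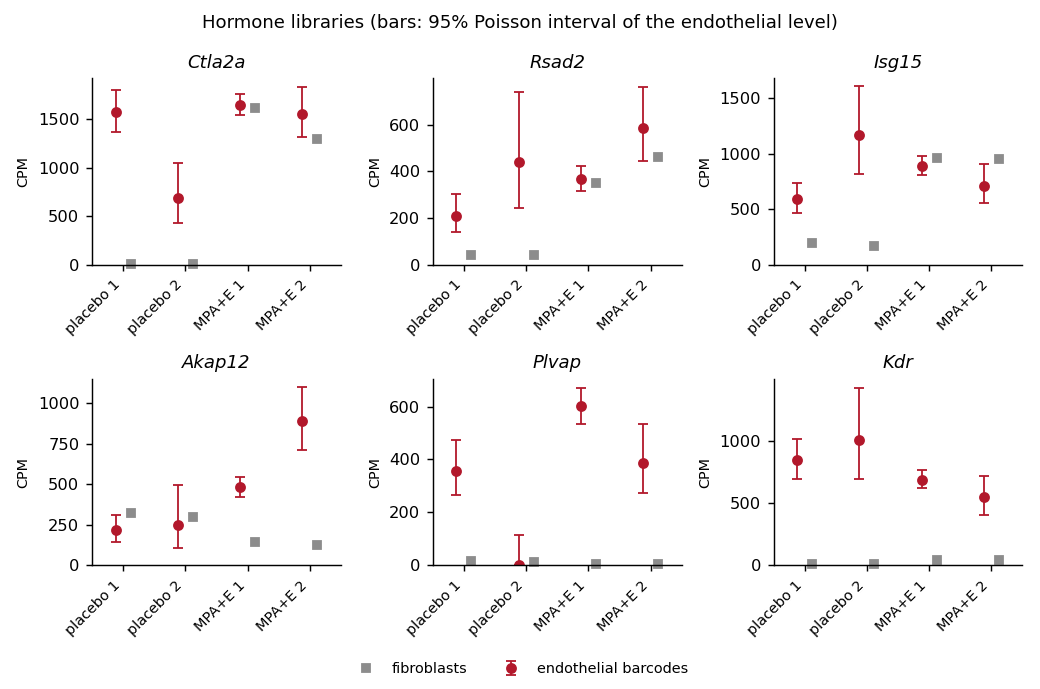
Levels in CPM on the vertical axes of 6 genes called by the cell type by treatment test, in the 2 placebo and 2 MPA+E libraries on the horizontal axes, for endothelial cells (circles, with bars for exact Poisson 95% intervals) and fibroblasts (squares). Ctla2a is present in the endothelial cells of both groups and reaches 1617 and 1301 CPM in the fibroblasts under MPA+E, against 7.10 and 10.97 CPM under placebo.

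The raGFP-Wnt1 libraries held 3 endothelial cells in 29452 retained barcodes, 2 in hyperplasia replicate 2 (0.0236%) and 1 in tumor replicate 1 (0.0104%). Hyperplasia replicate 1 and tumor replicate 2 held none, which allows shares of up to 0.0457% and 0.0620%. These 3 barcodes were deep, with 12251, 17602 and 30541 UMIs, and carried a median of 17.5 pan-endothelial genes in hyperplasia replicate 2 and 19 in tumor replicate 1. Of the 2 hyperplasia cells, 1 had both the pericyte and the smooth muscle set and the other had neither. A comparison of tumor with hyperplasia or normal tissue could not be made with these cells, and the reporter gate, the strain and the ages also differ from those of the wild-type libraries.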

How the data were processed

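The authors deposited, for each of the 13 libraries, a matrix of raw UMI counts per gene and barcode (32285 genes), filtered to called cells with Cell Ranger 6.1.2 against mm10 per the submitters' processing notes; no gene had been scaled or removed. Barcodes were kept by the limits on genes and mitochondrial UMIs given above. The members and gene lists were chosen with earlier results of these data known. The study removed doublets with its own tool, and here none was removed: Scrublet (scanpy 1.11.5) called 0 to 311 barcodes per library at its own threshold, which was not used, and leaving out its highest scores (0.8% per 1000 barcodes) was an alternative. Summed UMIs were compared by a fit of edgeR 4.0.16 (limma 3.58.1, R 4.3.3) with TMM scaling, filterByExpr and Benjamini-Hochberg adjustment over 14586 genes. Each SE is the absolute log2 difference divided by the square root of the F statistic of the same test. It is therefore no separate measure of precision. On simulated counts of this fit (14382 genes), 38.9% of 4-fold and 80% of 16-fold changes were recovered among 38 changed genes with 50 or more endothelial UMIs, with 0 false calls, and 10% and 41% over all 200 changed genes. The simulation used 1 dispersion for all genes and did not place most UMIs of a gene in 1 cell. Its count of false calls therefore does not cover calls that rest on 1 cell. Levels, exact intervals and permutation tests used Python 3.11.15 with numpy 2.4.6 and scipy 1.17.1. The few cells per library limit the precision of the levels, some genes take most of their UMIs from 1 cell, and replicates can differ by more than counting error. A count of 0 was read as allowing up to 3 counts.

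A fit of MPA+E against placebo in endothelial cells alone, and fits of tumors and hyperplasia, had been planned for groups with 50 or more cells and were not made because placebo, hyperplasia and tumors held fewer. Stages had been planned against the adult virgin library, which held 37 cells, so consecutive stages were compared instead, a choice made after seeing the data. Replicates are the libraries, and no label gives a sequencing batch. The p-values of the fit rest in part on dispersion estimates shared across genes, not only on each gene's own spread between libraries. Ackr1 and Ptn were called although, among the hormone libraries, only MPA+E replicate 1 held endothelial UMIs of them. Genes named are the rule markers, the pan-endothelial list, the genes with the largest ratio or difference in each direction, called members of the lists and the highest members of each list; the MHC class II genes other than Cd74, Ciita, Gm42418, Meox2 as background, and genes named beyond these as examples of a list or contrast were chosen after their values were seen. Positions are those of GENCODE M21 on GRCm38, in which 32158 of the 32285 gene IDs were found.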

Additional observations from a re-analysis of the deposited data

Results flagged for a closer look

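The cell type by treatment term of the edgeR fit called 19 genes, and for each of them this called difference is what asks for a closer look. The endothelial side of the term sets 124 MPA+E cells against 42 placebo cells, with 9 of the latter in placebo replicate 2. That comparison was given above only as values for want of cells. The calls are therefore candidates and do not establish that the response differed between the cell types. No cause was tested. The differences of Ctla2a (edgeR adjusted p = 5.70e-29) and Ctla2b (2.49e-14) were those of genes that stood at 1574 and 693 CPM and at 194 and 63.0 CPM in placebo endothelial cells and near 0 in placebo fibroblasts. Inflammatory genes with a more positive difference in endothelial cells were Cxcl2 (edgeR adjusted p = 5.88e-06), Il6 (1.94e-05) and Ackr1 (0.00476). Ackr1 was seen in MPA+E replicate 1 alone, at 93.6 CPM, and at 0 CPM in the other 3 hormone libraries. The same holds for the growth factor gene Ptn (edgeR adjusted p = 0.0278), with 68.8 CPM in MPA+E replicate 1. Ackr1 was called under 6 of 9 alternative settings and Ptn under 3, neither of them with limma-voom or without MPA+E replicate 1. Akap12 (edgeR adjusted p = 2.62e-05), Plvap (0.000365), Igfbp5 (0.00349), Prcp (0.000801) and Tmem252 (0.00768) were also more positive in endothelial cells. Prcp, a lysosomal carboxypeptidase, stood at 96.9 and 0 CPM in placebo and 273 and 241 CPM in MPA+E endothelial cells, and Tmem252 at 142 and 31.5 CPM against 182 and 1184 CPM. Tmem252 was called under 3 of 9 alternative settings, and its difference was -1.26 without placebo replicate 2.

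Of the genes of other vessel wall cells, Tagln (edgeR adjusted p = 0.000236) was more positive and Rgs5 (0.000365) more negative in endothelial cells. The Tagln call was lost without MPA+E replicate 1 and without cells of smooth muscle, pericyte or Ptprc identity. Rgs5 stood at 149 and 787 CPM under placebo and 64.97 and 10.5 CPM under MPA+E, with 70% of the UMIs of placebo replicate 1 and 96% of those of placebo replicate 2 from 1 cell each, and the pericyte list stood at 201 and 1512 CPM against 227 and 293 CPM. The Rgs5 call was lost without placebo replicate 2, without MPA+E replicate 2 and with at least 3 of the 4 markers. Hspb1 (edgeR adjusted p = 0.000365), Rsad2 (0.00354), Isg15 (0.00768), Kdr (0.00925), Sox18 (0.0334) and Tgm2 (0.0499) were more negative in endothelial cells. Tgm2, a transglutaminase, stood at 164 and 63.0 CPM against 216 and 209 CPM in endothelial cells and 22.4 and 30.4 CPM against 169 and 268 CPM in fibroblasts. Tgm2 and Sox18 were called under 3 of 9 alternative settings, Kdr and Rsad2 under 4 and Isg15 under 5.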

How the results depend on the processing

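The cell type by treatment test called 19 genes, and it called 32 with limma-voom, 22 with no filter on low counts and 19 with Dcn at most 5 per 10000. It called 11 with at least 3 of the 4 markers and 10 without cells of smooth muscle, pericyte or Ptprc identity, which are alternatives chosen after seeing the data. Leaving out 1 library gave 5 (without MPA+E replicate 1) to 75 genes (without placebo replicate 1), with 44 without placebo replicate 2 and 6 without MPA+E replicate 2. Of the 19 genes, 8 were kept with limma-voom, 19 with no filter, 18 with the Dcn limit of 5, 14 and 17 without placebo replicates 1 and 2, 3 and 6 without MPA+E replicates 1 and 2, and 10 in each of the added settings. The difference of Tmem252 ran from -1.26 without placebo replicate 2, where it reversed, to 6.93 without placebo replicate 1, and the cause was not tested. The difference in endothelial share ran from -0.135 without MPA+E replicate 1 to 1.34 percentage points without MPA+E replicate 2. The count of genes 4-fold apart was 19 between puberty and pregnancy and became 11 with at least 3 markers, 11 with Dcn at most 5 per 10000 (2 higher and 9 lower in place of 8 and 11) and 100 at 2-fold. Between pregnancy and lactation the count was 67, and it became 35 with at least 3 markers and 346 at 2-fold, and between lactation and involution it was 44 and became 24 and 260. Without the highest Scrublet scores the counts were 13, 68 and 56, with 6 lower genes in place of 11 between puberty and pregnancy. With fewer cells, fewer genes reach 50 UMIs. TMM scaling gave 21, 72 and 58 genes and moved the median log2 ratio of all genes from 0.09, -0.04 and 0.02 to 0.16, -0.13 and 0.13. With the replicate number as a block, added after seeing the data, the share was higher under MPA+E by 1.10 percentage points in replicate 1 and by 0.105 in replicate 2, a mean of 0.601 (exact two-sided sign permutation test, p = 0.5, the smallest that 2 pairs allow), and nothing beyond the number ties these libraries together. The library block already holds the replicate number in the cell type by treatment test, and the other fits with a replicate block were not made for want of cells. Other models, scalings and filters intended for those fits were not run for the same reason.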
